A study of Mus musculus and blank sample with 768 samples.

Results

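The genes described here are the integrins and the cytoplasmic proteins that link them to the cytoskeleton, 35 genes of the 51734 symbols in the deposited tables. They were chosen by name: every row named Itga or Itgb followed by a number or letter in both tables, with the platelet chain Itga2b left out, plus the talins Tln1 and Tln2, the kindlins Fermt1, Fermt2 and Fermt3, the kinase Ilk, the parvins Parva, Parvb and Parvg, and vinculin (Vcl). The set holds 17 alpha chains, 8 beta chains and 10 adaptors. It was read across 6 sort gates of mouse cells. Tumour GFP+ endothelial cells (EC) were CD45-, CD31+ and GFP+, a population that the labels name as EC of the Csf1r lineage. Tumour GFP- EC shared that gate except for GFP, and tumour macrophages were CD45+, CD31- and GFP-. Lymph node (LN) EC were all CD45- and CD31+ and were sorted as GFP+, GFP- or GFPlow, the last named in the labels as only potential members of the lineage. Genotype, strain, age, tumour model and the driver of GFP are not given in the sources used here, and no label names an animal.

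Integrins are cell surface receptors made of 1 alpha and 1 beta chain, and the pair decides what is bound: collagen, laminin, fibronectin and other RGD proteins, or counter-receptors on other cells. Talin and kindlin bind the beta chain from inside and switch the receptor on, while integrin-linked kinase (ILK), the parvins and vinculin tie it to actin. In blood endothelium the beta1 integrins hold cells to the basement membrane, in lymphatic endothelium alpha9beta1 is known for its part in valve formation, and leukocytes depend on the beta2 integrins for adhesion.

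The members include counterparts of like function that were split between endothelium and macrophages, and 4 promoter sequences are shown for that contrast. Itgam and Parvg were high in macrophages and near 0 in tumour EC, Fermt3 is the kindlin of macrophages, and Fermt2 is the kindlin of tumour EC. The sequences are from RefSeq on GRCm38.p6, run 5′ to 3′ on the gene's own strand from 250 bases before the annotated start, and are written in lower case. Capitals mark GAGGAA, the core bound by the myeloid factor PU.1, and CCGGAA, a core bound by many ETS factors, or their reverse complements TTCCTC and TTCCGG.
Itgam, chr7:128062390-128062689, plus strand: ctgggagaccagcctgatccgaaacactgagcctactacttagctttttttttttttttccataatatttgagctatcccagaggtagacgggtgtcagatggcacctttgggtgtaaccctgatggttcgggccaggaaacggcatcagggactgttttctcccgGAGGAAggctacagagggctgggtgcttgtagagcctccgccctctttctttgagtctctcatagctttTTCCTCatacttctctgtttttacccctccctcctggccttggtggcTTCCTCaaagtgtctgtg
Parvg, chr15:84324470-84324769, plus strand: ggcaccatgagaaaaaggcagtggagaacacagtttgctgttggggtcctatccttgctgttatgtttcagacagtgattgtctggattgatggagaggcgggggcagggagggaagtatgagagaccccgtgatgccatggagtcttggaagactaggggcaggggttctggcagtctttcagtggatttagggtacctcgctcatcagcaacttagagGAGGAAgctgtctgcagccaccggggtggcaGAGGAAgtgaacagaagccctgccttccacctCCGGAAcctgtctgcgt
Fermt3, chr19:7019420-7019719, minus strand: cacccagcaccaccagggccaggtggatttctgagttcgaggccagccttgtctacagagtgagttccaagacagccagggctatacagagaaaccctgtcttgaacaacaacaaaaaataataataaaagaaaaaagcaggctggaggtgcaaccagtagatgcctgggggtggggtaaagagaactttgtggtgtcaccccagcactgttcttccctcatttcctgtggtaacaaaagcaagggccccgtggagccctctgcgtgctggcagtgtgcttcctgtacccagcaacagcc
Fermt2, chr14:45530016-45530315, minus strand: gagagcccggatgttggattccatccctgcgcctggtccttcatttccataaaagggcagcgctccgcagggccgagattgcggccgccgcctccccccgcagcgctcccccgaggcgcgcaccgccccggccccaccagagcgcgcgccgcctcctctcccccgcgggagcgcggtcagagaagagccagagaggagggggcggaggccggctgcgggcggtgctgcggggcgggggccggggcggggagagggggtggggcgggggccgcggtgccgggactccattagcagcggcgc
The Itgam window held 3 matches to GAGGAA. Parvg has 2 windows in RefSeq. The one shown held 2 matches to GAGGAA and 1 to CCGGAA, and the other held neither. Neither set of letters was in the windows of Fermt3 and Fermt2, nor in that of Itgax, another gene high in macrophages. Among all 32851 promoter windows of 300 bases, 28.3% held GAGGAA and 14.9% held CCGGAA. Of the 25 members matched to a promoter by symbol, 10 held GAGGAA in at least 1 of their windows (Itga3, Itga5, Itga11, Itgam, Itgav, Itgb1, Itgb6, Itgb7, Parvg and Tln1), and 4 held CCGGAA (Ilk, Itga3, Itgb1 and Parvg). The matches are letters in a window and were not related to the values below.

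Of the 739 wells in the 6 gates, 585 cells passed the filter. They were 84 and 85 tumour GFP+ EC on plates KM3 and KM4, 84 tumour GFP- EC (plate KM2), 81 macrophages (plate KM1), 98 LN GFP+ EC, 74 LN GFP- EC and 79 LN GFPlow EC. LN GFP+ and GFP- EC came from pools A, B and C and LN GFPlow EC from pools B, C and D, the order in which pool values are given. Median depth per gate ran from 609244 reads in genes per cell in LN GFP- EC to 1238819 in LN GFPlow EC. Each tumour GFP- and macrophage gate filled 1 plate, so gate and plate cannot be told apart there. Since no animal is named, each gate is 1 sample. Differences are therefore given with no test, and intervals, all at 95%, cover counting error only. Levels are the summed reads of a gate in counts per 1000000 reads (CPM). A member was called higher or lower when its summed level and its mean over cells were both at least 2-fold apart and each pairing of plates or pools went the same way. Marker genes bore out the tumour gates: reads of Ptprc, which encodes CD45, were in 0 cells of either tumour EC gate (upper limits of 1.78% in GFP+ and 3.57% in GFP- EC) and in 91.4% of macrophages, while the endothelial cadherin Cdh5 was in 97.6% of cells of both tumour EC gates. LN GFP- EC were mixed, with the lymphatic factor Prox1 in 36.5% of cells and the blood endothelial receptor Flt1 in 64.9%. In LN GFP+ EC the same 2 genes were in 79.6% and 8.16% of cells, and in LN GFPlow EC in 74.7% and 8.86%. The pericyte gene Rgs5 stood at 265.2 CPM in LN GFP+ EC, 150.6 in LN GFPlow EC and 8.95 in LN GFP- EC, with Pdgfra and Pdgfrb at 0 in all LN gates. Of the 6 fibroblast or pericyte markers, 3 had a read in LN GFP+ EC and 1 passed 1 CPM. In each EC gate 7 of 7 endothelial markers reached 1 CPM, with summed levels of 2753 to 7748 CPM. Emcn, however, was read in only 1 of 98 LN GFP+ EC and in 10.1% of LN GFPlow EC, and Tek in 12.2% and 12.7% of these gates. The blood endothelial list summed to 5478, 5191, 2258, 7491 and 2079 CPM in tumour GFP+, tumour GFP-, LN GFP+, LN GFP- and LN GFPlow EC, and the lymphatic list to 312.3, 185.5, 1240, 835 and 1375. In LN GFP+ and GFPlow EC, Plvap alone gave 2248.5 and 1923.6 CPM of the blood endothelial sums, while Ly6c1, Sox17 and Esm1 had 0 reads in the first of these gates and at most 0.0525 CPM each in the second. Cd34 was at 0.641 CPM in LN GFP+ EC and at 136.8 CPM in LN GFPlow EC, read in 3 and 6 cells. Flt1 was at 8.90 and 18.6 CPM in the same order. The macrophage list summed to 24926 CPM in macrophages and to at most 70.4 in any EC gate. Markers of T or B cells and of epithelium stayed at or under 3.85 and 0.151 CPM in the EC gates. The macrophage gate summed to 27.03 CPM of the T or B cell list, with Cd3e and Cd3g each read in 4 of its 81 cells, and to 0 of the epithelial list.

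In all, 26 of the 35 members were measured in at least 1 gate, that is, they reached 1 CPM with 5% of the cells or more holding a read. Only 7 were measured in every gate, and they were Ilk, Itga5, Itga6, Itga9, Itgav, Itgb1 and Tln1. The summed level of all members was 3114 CPM in tumour GFP+ EC, 3416 in tumour GFP- EC and 3024 in macrophages. It was 1788 in LN GFP+ EC, 2000 in LN GFP- EC and 1919 in LN GFPlow EC. Tumour EC and macrophages thus devoted a like share of reads to the set. The 7 members measured in every gate supplied the larger part of the sum in each EC gate and the smaller part in macrophages. The rest came largely from different genes in EC and in macrophages.

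**Figure D1:**
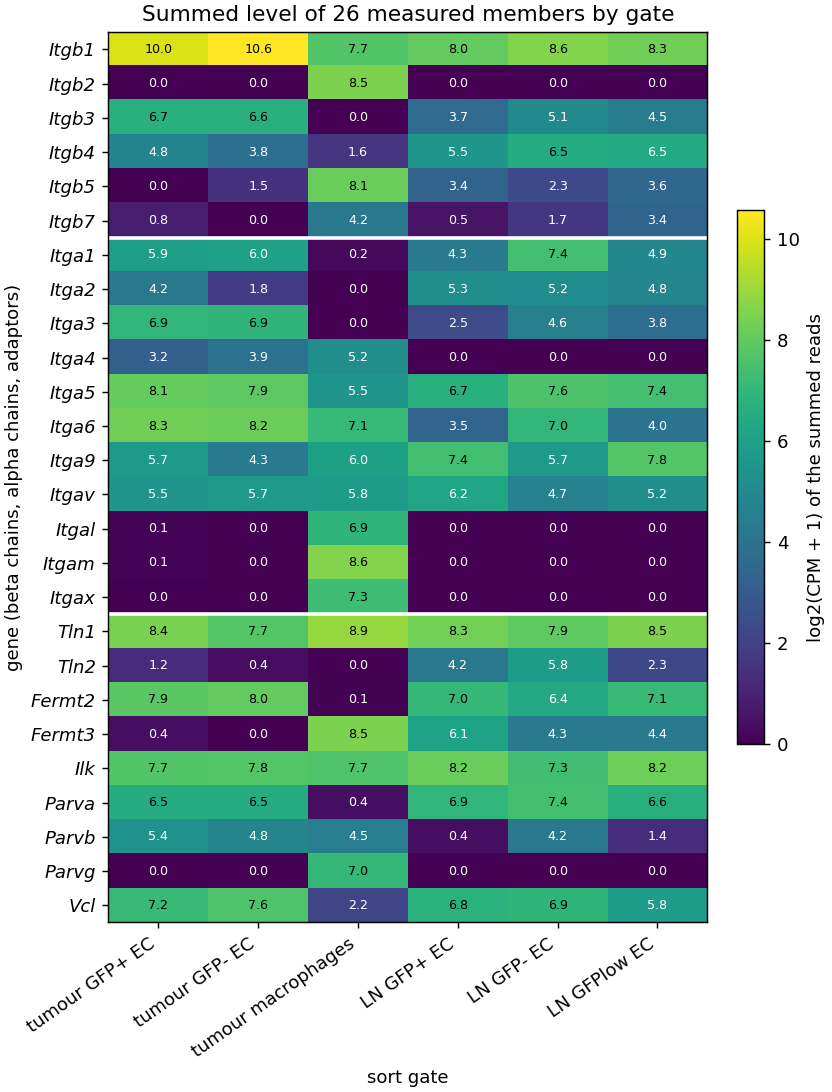
Level of the 26 measured members (rows, ordered as beta chains, alpha chains and adaptors) in 6 sort gates (columns), as log2(CPM + 1) of the summed reads, printed in each tile. The leukocyte genes Itgb2, Itgal, Itgam, Itgax and Parvg are at or near 0 in every EC gate, and Itgb1 in the tumour EC gates holds the 2 highest values.

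Itgb1 encodes beta1, the partner of most alpha chains. It was at 1041 CPM in tumour GFP+ EC (1047 on KM3 and 1035 on KM4), at 1511 in tumour GFP- EC and at 205.1 in macrophages. The LN gates gave 256.02 in GFP+ EC, 392 in GFP- EC and 307.8 in GFPlow EC. Both tumour EC gates lay above every other gate. Over cells, Itgb1 ran from 0 through a median of 957 to 3976 CPM in tumour GFP+ EC and from 0 through 1203 to 4006 in tumour GFP- EC. In LN GFP+ EC the lowest, median and highest cells were at 0, 55.2 and 1743 CPM. By pool A, B and C, LN GFP+ EC were at 246.1, 317.998 and 212.2 CPM and LN GFP- EC at 437, 344.3 and 390.3, and LN GFPlow EC at 452, 464 and 242.7 in pools B, C and D. The single cells of these gates overlapped although the medians lay far apart. Reads of Itgb1 were found in 95.9% of tumour GFP+ EC (91.7 to 98.3%) and in 67.3% of LN GFP+ EC (57.1 to 76.5%). With every cell thinned to 100000 reads, these shares were 95.8% and 63.2%.

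Itgb2 encodes beta2, the chain of the leukocyte integrins. It was at 351.97 CPM in macrophages, with reads in 87.7% of cells and a range over cells of 0 to 2137 CPM around a median of 321.9. It had 0 reads in both tumour EC gates and in LN GFPlow EC, and 1 read each in LN GFP+ and LN GFP- EC. In tumour GFP+ EC, 0 cells allows a share of up to 1.78% (3 cells of those in the gate). Beyond those 2 reads, Itgb2 was not detectable in EC at this depth.

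Itgb5 encodes beta5, which pairs with alphav on vitronectin. Macrophages held it at 281.1 CPM, in 79.01% of cells (68.5 to 87.3%), with a median cell at 200.1 CPM and the highest at 1468. Tumour GFP+ EC had 2 reads in 2 cells, and tumour GFP- EC had 1.82 CPM, all from 1 cell. The LN values of 9.28, 4.01 and 11.02 CPM in GFP+, GFP- and GFPlow EC rested on 1 cell each for at least 99.9% of their reads. Outside the macrophage gate, Itgb5 reads thus came from single cells.

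Itgb3 encodes beta3, the partner of alphav in angiogenic endothelium. It was at 104.4 CPM in tumour GFP+ EC (89.2 on KM3 and 118.6 on KM4) and at 96.3 in tumour GFP- EC, with reads in 48.5% and 51.2% of cells. Macrophages held 2 reads of it. The LN gates gave 12.1, 32.5 and 20.9 CPM in GFP+, GFP- and GFPlow EC. Pools spread widely, with 7.10, 32.8 and 0 CPM in A, B and C of GFP+ EC, 41.8, 29.7 and 0 in those of GFP- EC and 25.5, 46.3 and 14.2 in B, C and D of GFPlow EC. Itgb4 encodes beta4, the laminin receptor chain that pairs with alpha6. It was lower in the tumour EC gates than in the LN gates, with 26.6 and 13.4 CPM in tumour GFP+ and GFP- EC against 45.5, 91.3 and 88.1 in LN GFP+, GFP- and GFPlow EC. The GFP+ plates were far apart, at 45.6 and 8.77 CPM on KM3 and KM4. In the LN the pools gave 28.1, 60.6 and 57.7 CPM in GFP+ EC, 92.2, 95.97 and 66.4 in GFP- EC and 99.2, 89.7 and 85.5 in GFPlow EC. Itgb7 encodes the beta7 chain of lymphocyte homing receptors, and was at 17.9 CPM in macrophages, where 1 cell held 40.2% of its reads. The part of the T cell reads in that gate's Itgb7, Itgal, Itga4 and Itgae values was not tested.

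Between genes, levels can be compared only per length of exon, and on that scale the families changed in make-up between gates. Of the beta chain reads per kilobase, Itgb1 made up 92.1% in tumour GFP+ EC and 95.2% in tumour GFP- EC. In the LN it made up 84.7% in GFP+ EC, 82.4% in GFP- EC and 76.9% in GFPlow EC. Macrophages were the exception, with 45.9% from Itgb2, 31.5% from Itgb5 and 19.99% from Itgb1. Among kindlins, Fermt2 supplied 99.9% in tumour GFP+ EC and 100% in tumour GFP- EC, while Fermt3 supplied 99.99% in macrophages. In the LN, Fermt3 came to 32.6% of the kindlin reads per kilobase in GFP+ EC, 17.5% in GFP- EC and 10.9% in GFPlow EC.

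**Figure D2:**
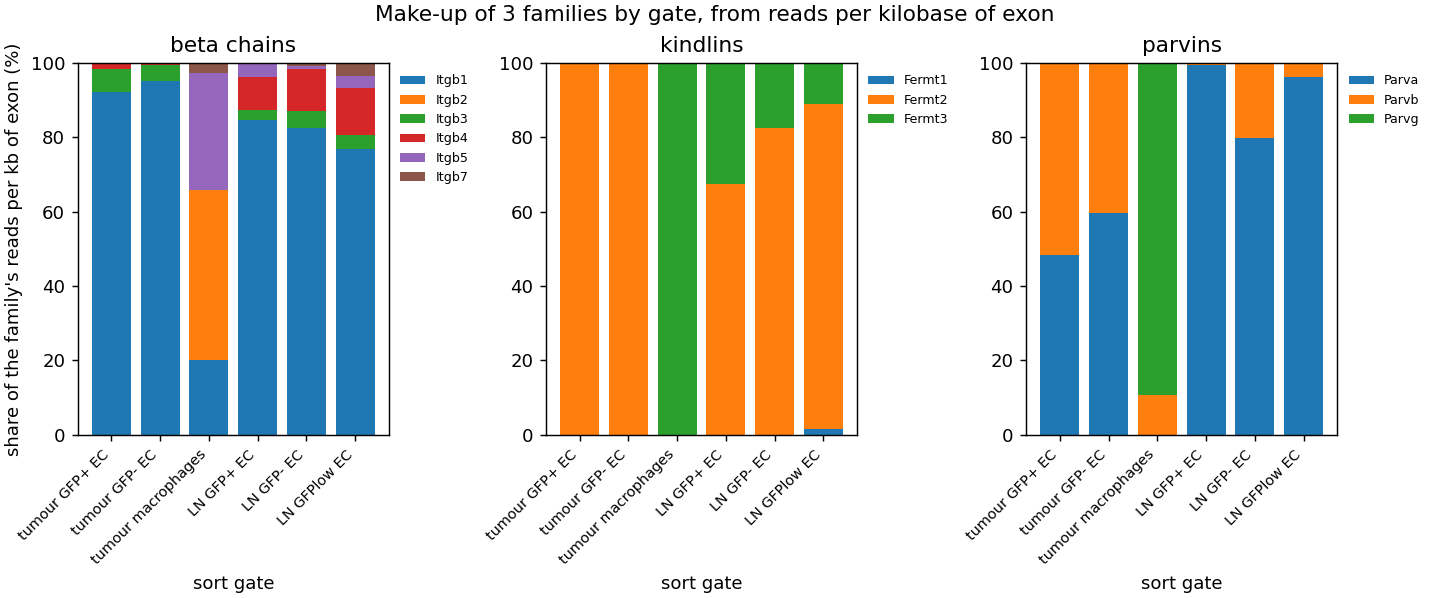
Make-up of the beta chains, kindlins and parvins in each sort gate (x axis), as each gene's share in percent of its family's reads per kilobase of exon (y axis, stacked to 100). Macrophages differ from every EC gate in all 3 families, and the parvins also differ between EC gates, from 0.553% Parvb in LN GFP+ EC to 51.6% in tumour GFP+ EC.

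Among the alpha chains that bind RGD proteins, Itga5 encodes the fibronectin receptor chain alpha5. It was at 270.4 CPM in tumour GFP+ EC (261.7 on KM3 and 278.5 on KM4) and 235.1 in tumour GFP- EC, against 43.1 in macrophages. The LN gates lay between, at 102.5, 192.1 and 166.7 CPM in GFP+, GFP- and GFPlow EC. Their pools gave 85.9, 76.8 and 152.5 CPM, then 206.9, 175.3 and 194.5, and then 141.8, 162.5 and 172.7, so that every GFP+ pool lay under every GFP- pool. Per kilobase, Itga5 was the most abundant alpha chain in tumour GFP+, tumour GFP-, LN GFP- and LN GFPlow EC, at 43.1%, 42.3%, 49.02% and 45.2% of alpha chain reads. In LN GFP+ EC it made up 36.01%, next to 36.9% from Itga9, and in macrophages Itgam led with 44.8%. Itgav encodes alphav, and its level ranged from 24.4 CPM in LN GFP- EC to 73.6 in LN GFP+ EC. KM3 and KM4 gave 37.1 and 52.7 CPM. The LN pools gave 101.3, 45.1 and 58.2 CPM in GFP+ EC, 5.59, 32.1 and 81.9 in GFP- EC and 71.3, 47.1 and 26.6 in GFPlow EC. The LN GFP- value leaned on 1 cell with 32.6% of the reads, at 4429 CPM.

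The chains Itga1, Itga2 and Itga3 were read mainly in EC. Itga1 encodes the collagen receptor chain alpha1 and stood at 58.96 and 64.7 CPM in tumour GFP+ and GFP- EC, 0.175 in macrophages and 165.6 in LN GFP- EC. LN GFP+ and GFPlow EC gave 19.4 and 28.2 CPM. The plates KM3 and KM4 gave 30.7 and 85.4 CPM. LN pools ranged from 17.2 (C) to 273.5 CPM (A) in GFP- EC, from 1.38 (B) to 29.4 (C) in GFP+ EC and from 0.131 (C) to 37.3 (D) in GFPlow EC. Itga3 encodes the laminin receptor chain alpha3 and was at 121.7 and 118.02 CPM in tumour GFP+ and GFP- EC, with 0 reads in macrophages and 134.02 and 110.2 CPM on KM3 and KM4. Its LN values were 4.47, 23.5 and 12.9 CPM in GFP+, GFP- and GFPlow EC, and in LN GFP+ EC all its reads came from 1 cell. GFP- pools A, B and C were at 7.59, 45.96 and 1.51 CPM, and in GFPlow EC only pool D had reads, at 18.5 CPM. Itga2, the other common collagen receptor chain, had 0 reads in macrophages, was low in tumour EC (17.5 CPM in GFP+ and 2.60 in GFP-) and at 37.7, 34.7 and 27.2 CPM in LN GFP+, GFP- and GFPlow EC. Its LN pools ran from 13.1 (A) to 79.4 CPM (C) in GFP+ EC, from 20.1 (A) to 152.4 (C) in GFP- EC and from 0.0654 (C) to 43.9 (B) in GFPlow EC.

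Itga6 (chr2:71745616-71858416 on the plus strand of GRCm38) encodes alpha6, the laminin receptor chain that pairs with beta1 or beta4. It was at 306.6 CPM in tumour GFP+ EC, 289.1 in tumour GFP- EC and 133.7 in macrophages, with 331.6 and 283.3 on KM3 and KM4. In the LN it was at 124.9 CPM in GFP- EC and at 10.01 and 15.4 in GFP+ and GFPlow EC. Reads were in 58.2% of LN GFP+ EC (47.8 to 68.1%), 56.96% of LN GFPlow EC and 51.4% of LN GFP- EC (39.4 to 63.1%). In cells thinned to 100000 reads the shares were 32.6% (23.4 to 43.02%), 33.3% (23.1 to 44.9%) and 47.9% (35.9 to 60.1%) in the same order, with overlapping intervals. Among cells with a read, the median was 7.41 CPM in LN GFP+ EC, 8.35 in LN GFPlow EC and 191.04 in LN GFP- EC. A level of at least 100 CPM was reached by 2 of 98 LN GFP+, 2 of 79 LN GFPlow and 23 of 74 LN GFP- cells.

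Itga9 (chr9:118606690-118901003, plus strand) encodes alpha9, a receptor chain for tenascin and fibronectin splice forms. Its highest levels were in the LN gates richest in Prox1, at 163.7 CPM in GFP+ EC (191.5 in pool A, 185.98 in pool B and 99.7 in pool C) and 214.9 in GFPlow EC (337.3 in pool B, 180.1 in pool C and 198.3 in pool D). LN GFP- EC were at 50.01 CPM, with 39.7 in pool A, 72.6 in pool B and 0 in the 8 cells of pool C. Every pool of the GFP+ and GFPlow gates thus lay above every pool of the GFP- gate. In the tumour, Itga9 was at 49.5 CPM in GFP+ EC, 18.9 in GFP- EC and 63.1 in macrophages. Over cells the median was 52.3 CPM in LN GFP+ EC and 73.95 in LN GFPlow EC, and 0 in the other 4 gates, whose highest cells lay between 595 and 2107 CPM.

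**Figure D3:**
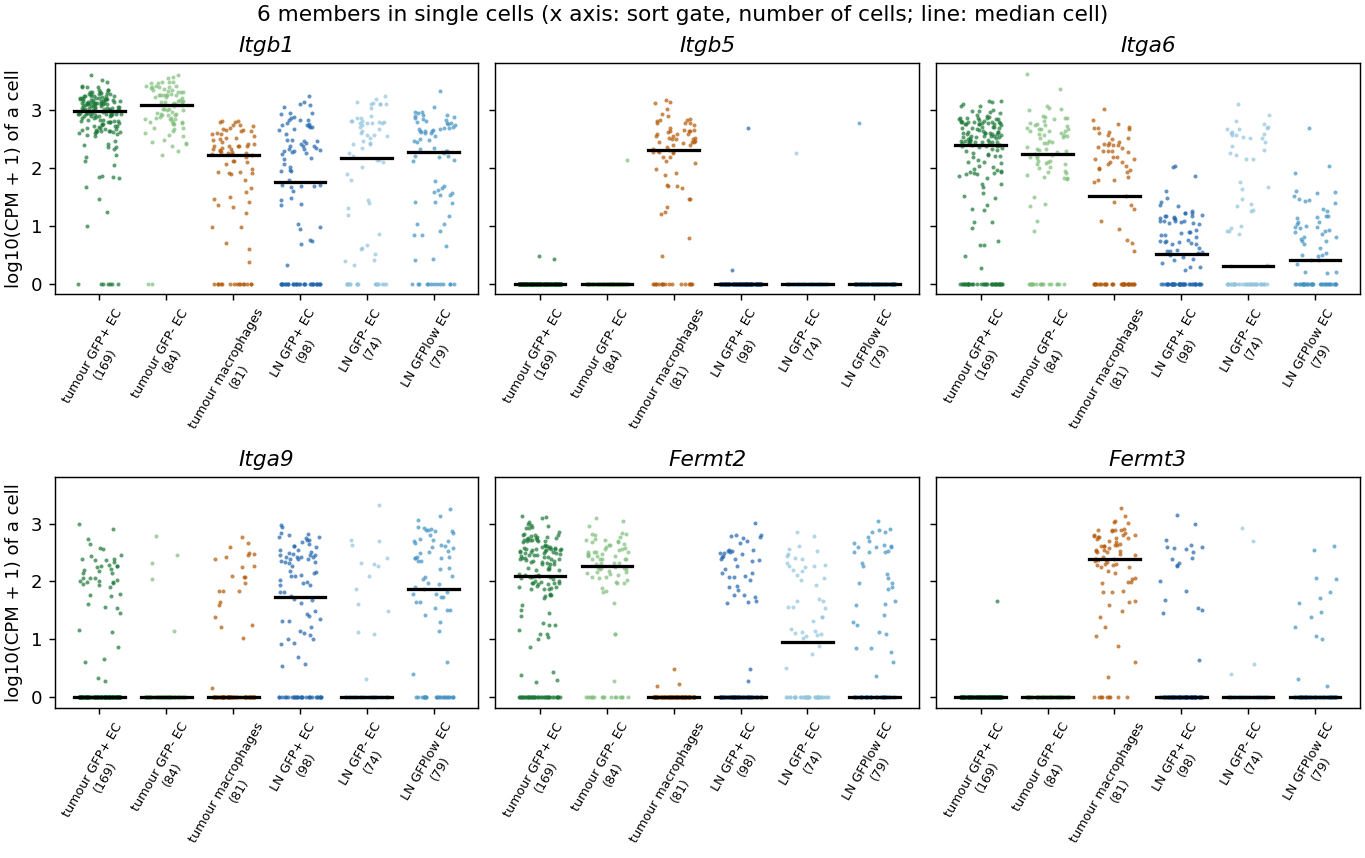
Level of 6 members in each cell (y axis, log10 of CPM + 1) by sort gate (x axis, number of cells in brackets), 1 point per cell with side-to-side scatter for visibility and a black line at the median cell. Itga6 forms a low band in LN GFP+ and GFPlow EC, with all but 2 cells of each gate under 100 CPM. In LN GFP- EC, Itga6 is split between 36 cells without a read and 38 cells with a read, most of the latter at 100 CPM or more. Itgb5 is read mostly in macrophages, whereas Fermt2 is read in most tumour EC and in 3.70% of macrophages. By pool, Fermt2 has reads in 33.3 to 57.5% of LN EC, so it does not separate single LN EC from macrophages.

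Alpha chains of leukocyte integrins kept to the macrophages. Itgam, which encodes the complement receptor chain alphaM, was at 373.8 CPM, with reads in 93.8% of macrophages. Itgax (alphaX) was at 156.5 CPM and Itgal (alphaL) at 118.5 in that gate. In tumour GFP+ EC the 3 genes gave 9 reads, 1 read and 13 reads, and in tumour GFP- EC none of them had a read. Itgam shares 3450 exon bases with the overlapping same-strand gene model Gm49368, and the 2 cannot be told apart there. Itga4, which encodes alpha4, the receptor chain for VCAM1, was at 36.1 CPM in macrophages, 14.2 in tumour GFP- EC and 8.33 in tumour GFP+ EC (4.86 on KM3 and 11.6 on KM4). It had 0 reads in all LN gates, and 0 of 98 LN GFP+ EC allows a share of up to 3.06%.

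Of the talins, which bind the beta chain tail, Tln1 was present in every gate. It was at 343.2 CPM in tumour GFP+ EC (296.6 on KM3 and 387 on KM4), 210.2 in tumour GFP- EC and 468 in macrophages, and at 319.1, 245.8 and 354.4 in LN GFP+, GFP- and GFPlow EC. Its pools gave 224.5, 420.4 and 367.7 CPM in GFP+ EC, 210.9, 320.8 and 83.7 in GFP- EC and 469, 429 and 314.2 in GFPlow EC. Tln2 was largely an LN gene, at 17.7, 55.3 and 3.86 CPM in those gates against 1.38 or less in the tumour. Its pools gave 3.85, 27.4 and 29.7 CPM, then 43.3, 76.2 and 20.9, and then 6.13, 9.74 and 2.05. Per kilobase, Tln2 made up 10.7% of talin reads in LN GFP- EC and 0.214% in tumour GFP+ EC.

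Kindlins are the co-activators of integrins, and they divided along the gate. Fermt2 encodes kindlin-2 and was at 231.5 CPM in tumour GFP+ EC (250.5 on KM3 and 213.8 on KM4), 256.2 in tumour GFP- EC and 0.0374 in macrophages, where it had 3 reads in 3 of 81 cells. The LN gates held 128.9, 81.3 and 140.9 CPM in GFP+, GFP- and GFPlow EC. By pool these were 132.98, 119.4 and 131.9 CPM, then 83.5, 69.6 and 122.9, and then 126.3, 228.2 and 123.8. Fermt3 encodes kindlin-3, known as the kindlin of blood cells. It was at 351.4 CPM in macrophages, with reads in 88.9% of cells and a median cell at 242.97 CPM. In tumour GFP+ EC its 45 reads came from 1 cell, and tumour GFP- EC had 0. LN EC did carry it, at 69.3 CPM in GFP+ EC (90.99, 54.1 and 50.7 in pools A, B and C), 19.2 in GFP- EC and 19.7 in GFPlow EC (8.67, 5.29 and 25.2 in pools B, C and D). Of the LN GFP+ EC, 21 of 98 cells had Fermt3 reads (21.4%, 13.8 to 30.9%), with the highest at 1410 CPM.

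Of the scaffold genes, Parva and Vcl were called higher in both tumour EC gates than in macrophages and Parvg lower, while Ilk and Parvb were not called. Ilk was present in every gate, from 159.6 CPM in LN GFP- EC to 302.9 in LN GFPlow EC, with 171.4 and 244.3 on KM3 and KM4, although 2106 of its exon bases overlap Taf10 on the opposite strand and the counting is not stated to use strand. Its LN pools gave 368.8, 180.4 and 259.9 CPM in GFP+ EC, 124.9, 173.5 and 266.3 in GFP- EC and 295.4, 119.5 and 346.6 in GFPlow EC. Parva, which encodes alpha-parvin, was at 91.3 and 91.2 CPM in tumour GFP+ and GFP- EC and 0.312 in macrophages. Its LN levels were 121.7, 162.96 and 97.1 CPM in GFP+, GFP- and GFPlow EC, by pool 85.3, 140.3 and 159.8, then 163.1, 145.005 and 241.9, and then 83.6, 126.1 and 93.2. Parvg, which encodes the gamma-parvin of blood cells, was at 130.1 CPM in macrophages and had 1 read in all EC gates together, in tumour GFP- EC. Parvb (chr15:84232043-84315688, plus strand), which encodes beta-parvin, was at 42.4 CPM in tumour GFP+ EC, 26.7 in tumour GFP- EC, 22.1 in macrophages and 17.8 in LN GFP- EC, against 0.294 in LN GFP+ EC and 1.59 in LN GFPlow EC. KM3 and KM4 gave 48.6 and 36.5 CPM, and in GFPlow EC only pool D had reads, at 2.27 CPM. Among measured members, Itga4 (1124 exon bases with Cerkl), Itgav (634 with Gm13684), Itgb4 (537 with B230344G16Rik), Tln1 (360 with Creb3) and Fermt3 (89 with Trpt1) also overlap a gene on the opposite strand. Vcl was at 142.6 and 200 CPM in tumour GFP+ and GFP- EC, 3.60 in macrophages and 107.1, 120.3 and 54.5 in the LN gates, and it overlaps Ap3m1 on the opposite strand by 2090 exon bases. Plates KM3 and KM4 gave 121.4 and 162.5 CPM, and the pools 88.5, 180.5 and 65.7 in LN GFP+ EC, 87.03, 166.1 and 78.9 in LN GFP- EC and 53.9, 58.96 and 53.6 in LN GFPlow EC.

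Tumour GFP+ EC were next set against tumour macrophages, which asks how far EC labelled as Csf1r lineage carry the integrin genes of macrophages. Of 25 members measured in this comparison, 11 were called higher in EC and 9 lower. Over all 11551 genes measured, 22% were called higher and 17.6% lower. The members' median absolute log2 ratio was 4.96 against 0.84 over all measured genes. Higher in EC were Fermt2, Itga1, Itga2, Itga3, Itga5, Itga6, Itgb1, Itgb3, Itgb4, Parva and Vcl. Lower were Fermt3, Itga4, Itgal, Itgam, Itgax, Itgb2, Itgb5, Itgb7 and Parvg. The log2 ratio was 7.81 for Fermt2 and -8.09 for Fermt3. For the genes with 0 reads on one side, Itga3 was at least 3253-fold higher in EC and Itgb2 at least 17877-fold lower, against a floor of 3 reads over the gate. The 3 macrophage reads of Fermt2 put its ratio at 6187-fold, with a counting interval of 2117 to 30001. Without KM3 the Itga4 call was lost, with a log2 ratio of -1.56 against -1.99 with both plates. Csf1r itself was at 1.44 CPM in tumour GFP+ EC and 1384 in macrophages.

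Tumour GFP- EC, set against the same macrophages, gave 10 members higher and 11 lower of 24, against 24.9% and 17.7% of all genes. With 1 plate on each side there was 1 pairing, so the check of direction could not fail here, whereas GFP+ EC had 2 pairings. The 2 comparisons share their macrophages, so their values are side by side and not independent. Fermt2 had a log2 ratio of 7.95, Itgb1 of 2.88 (2.34 for GFP+ EC) and Itgam of -8.55 (-8.47 for GFP+ EC). Itga9 was called lower here at -1.69, while GFP+ EC, at -0.35, were within 2-fold of macrophages. Tln1 was also called lower, at -1.15, a call lost with a pseudocount of 5 CPM and in thinned cells. The Itga6 call, at 1.11, was lost with the stricter cell filter and with median-of-ratios scaling.

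Ligands and partners of integrins were read from 2 lists of 25 genes each. Of the 20 ligands measured between tumour GFP+ EC and macrophages, 13 were called higher in EC and 3 lower, with a median log2 ratio of 5.06 against 0.08 for all measured genes. The basement membrane collagen genes Col4a1 and Col4a2 stood at 2535 and 2406 CPM in EC and at 1.56 and 0.187 in macrophages. The laminin chain Lamb1 and the nidogen Nid2, further basement membrane parts, had log2 ratios of 9.01 and 8.95. Those lower in EC, named after their values were seen, were Spp1 (osteopontin), Vcam1 and Cdh1, at -7.96, -3.29 and -3.19. All 25 partners were measured, with 11 higher and 3 lower and a median of 0.82. The focal adhesion kinase gene Ptk2 was at 98.1 against 0.137 CPM and Lims2, an ILK partner, at 88.1 against 0 reads. Apbb1ip, which encodes the talin recruiter RIAM, had 0 reads in EC and 28.9 CPM in macrophages. Tumour GFP- EC gave the same counts of 13 and 3 ligands and 11 and 3 partners, with Col4a2, Col4a1, Nid2 and Lamb1 at log2 ratios of 10.53, 9.67, 9.23 and 8.76. Among the partners there, Ptk2, Lims2 and Apbb1ip were at 6.84, 6.21 and -4.73.

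Within the tumour, GFP+ and GFP- EC carried much the same members. Of 17 measured, 2 were called higher in GFP+ EC and 0 lower, where 5.42% and 6.24% of all 10971 genes were (6.75% and 4.90% with median-of-ratios scaling). The median absolute log2 ratio of the members was 0.20, and that of all measured genes 0.42. Itga2 was at 27.8 CPM on KM3, 7.94 on KM4 and 2.60 on the GFP- plate KM2, a log2 ratio of 2.36 by the pooled plates. Both GFP+ plates lay above the GFP- plate. Itga2 had reads in 20 GFP+ cells (11.8%, 7.38 to 17.7%) and 4 GFP- cells (4.76%, 1.31 to 11.7%). In thinned cells the shares were 8.38% (4.66 to 13.7%) and 4.88% (1.34 to 12.02%). The intervals of the gates overlapped at both depths. Itga9 was at 64.8 CPM on KM3, 35.2 on KM4 and 18.9 on KM2, a log2 ratio of 1.34. It had reads in 28.99% of GFP+ EC (22.3 to 36.5%) and 5.95% of GFP- EC (1.96 to 13.3%), and in 26.3% and 6.10% of thinned cells. Without KM3 the Itga9 ratio was 0.86 and the call was lost.

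Of the 49 tumour GFP+ EC with Itga9 reads, 49 had Pecam1, 47 had Itgb1, 1 had Prox1 and 0 had Ptprc. The remaining 15 measured members were within 2-fold. Itgb1 had a log2 ratio of -0.54, Tln1 of 0.70 and Parvb of 0.65. Itgb4 went opposite ways on the 2 plates, at 1.69 for KM3 and -0.56 for KM4 over KM2. Among the ligands, 2 of 19 measured were called higher (Npnt, nephronectin, and Thbs1, thrombospondin, log2 ratios 1.52 and 1.36) and 1 lower (Spp1, -2.12). Of 23 measured partners, 1 was called higher, the tensin gene Tns3 at 1.11, and 0 lower.

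**Figure D4:**
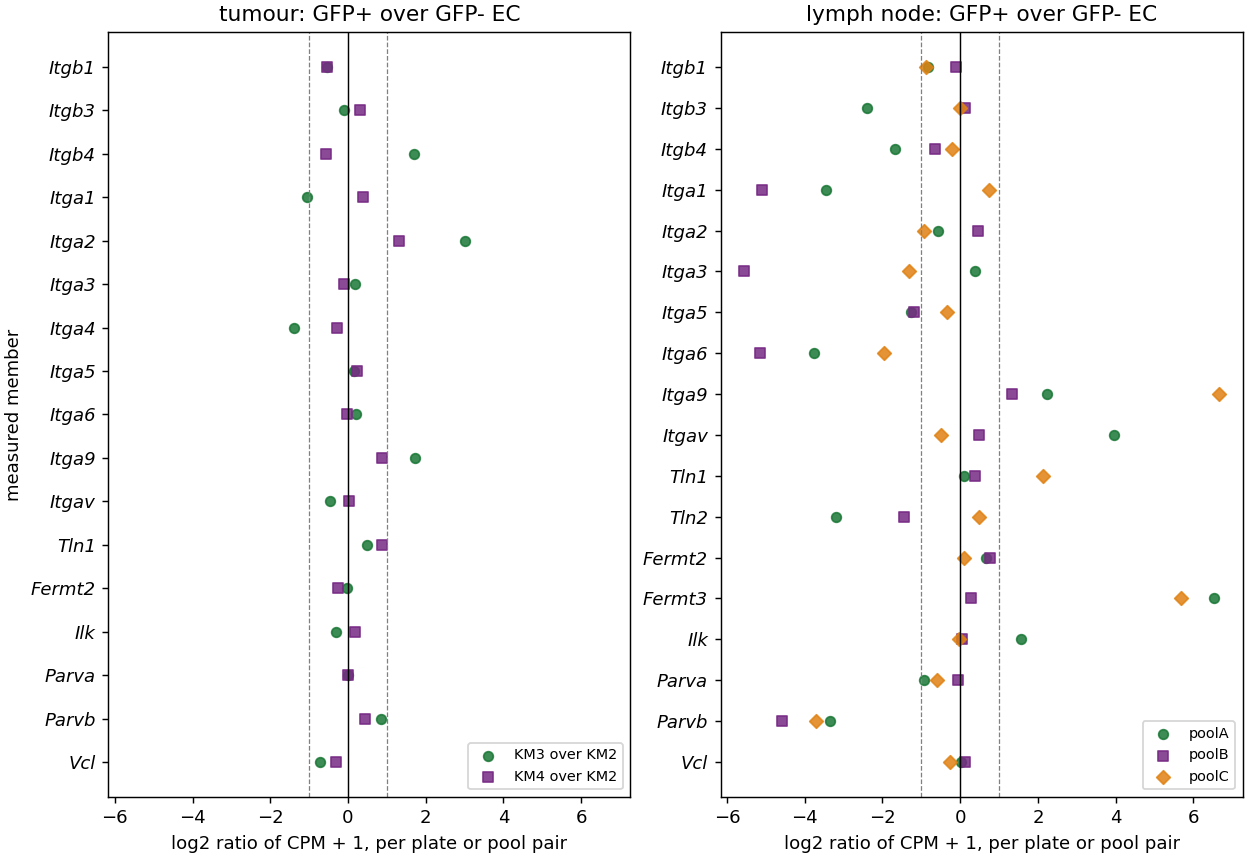
log2 ratio of CPM + 1 (x axis) of GFP+ over GFP- EC for each measured member (y axis), in the tumour for plates KM3 and KM4 over plate KM2 and in the LN for pools A, B and C, with dashed lines at a 2-fold difference. Tumour points lie between the dashed lines apart from Itga2, Itga9, Itgb4, Itga4 and Itga1, each of which passes a line on at least 1 plate, whereas Itga6 and Parvb lie left of -1 and Itga9 right of 1 in all 3 LN pools.

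In the LN, GFP+ EC differed from GFP- EC in 4 of 18 measured members, 2 higher and 2 lower, with 11.9% and 6.86% of all genes called. Itga6 was lower, at 6.91, 3.42 and 21.04 CPM in pools A, B and C of GFP+ EC against 106.1, 154.8 and 84.1 in GFP- EC, a log2 ratio of -3.52. The 3 pools of each gate did not overlap. Parvb was lower too, at 0.359, 0 and 0.477 CPM against 12.7, 23.2 and 18.3, a log2 ratio of -3.86. It was detected in 4 of 98 GFP+ EC (4.08%, 1.12 to 10.1%) and 22 of 74 GFP- EC (29.7%, 19.7 to 41.5%). Itga9 was higher in GFP+ EC in each of the 3 pools, with log2 ratios of 2.24, 1.34 and 6.65 and a pooled ratio of 1.69. As the marker shares show, the 2 gates differ in their content of Prox1 and Flt1 cells, so cells with Prox1 are also compared between the gates further on.

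Fermt3 was the second member higher in LN GFP+ EC, with a log2 ratio of 1.798. By pool its ratios were 6.52 in A, 0.27 in B and 5.69 in C, since GFP- EC had 0 reads in pools A and C and 4 positive cells in pool B, 1 of which held 62.1% of the gate's reads. The call was lost with the stricter cell filter, without the cells that had a Ptprc read, and without pool A, where the ratio was 0.51. Of the 21 GFP+ cells with Fermt3, 19 had Prox1, 1 had Ptprc and 0 had Itgb2. Pf4, a platelet and macrophage chemokine, had reads in 9 of those 21 and in 27 of the 77 cells without Fermt3. Itga2b, which encodes the platelet integrin chain alphaIIb, had reads in 16 of the 21 cells with Fermt3 and in 64 of the 77 without. Of the 4 leukocyte markers, 3 had a read in LN GFP+ EC, with a summed level of 18.1 CPM against 9.10 in LN GFP- EC. Of the 4 platelet markers, 2 and 3 had a read in those gates, with summed levels of 40.6 and 7.63 CPM. Of the 7 macrophage markers, 7 and 6 had a read, with summed levels of 70.4 and 5.37 CPM. The part of these cell types in the Fermt3 value was not tested.

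Several members were over 2-fold apart in the LN without being called, because pools disagreed. Itgb3, at -1.36, was also within 2-fold by the mean of cells. Itga1 had a pooled log2 ratio of -3.03 but pool values of -3.45, -5.10 and 0.73, and Itga3 one of -2.16 with 0.38, -5.55 and -1.33. Itgav was at 1.55 pooled and at 3.96, 0.48 and -0.49 by pool. Pool C, with 8 GFP- cells, was the one that turned in Itga1, Itgav and Tln2. Without it, Itga1, Itga5 and Tln2 were also called lower. Of 19 measured ligands, 3 were called higher in GFP+ EC and 5 lower. Postn (periostin) was higher at a log2 ratio of 5.82 and Madcam1, a counter-receptor for an alpha4 integrin, at 3.88. Tnc (tenascin C), a ligand of alpha9, was lower at -4.15, and Col4a2 at -3.48. Of 24 measured partners, 2 were higher and 6 lower, led by Lims2 (0 reads against 103.1 CPM), Lims1 (-2.68), Cd9 (-2.26) and Bcar1 (-1.75).

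LN GFPlow EC were compared within pools B and C, where each of the 3 gates has cells (29 of GFPlow, 34 of GFP-, 55 of GFP+). Relative to GFP- EC, 1 of 18 measured members was called higher and 5 lower, with 14.8% and 14.2% of all genes called. Itga9 was the higher one, at 253.5 against 59.2 CPM. The lower ones were Itga1, Itga3, Itga6, Parvb and Tln2, with log2 ratios of -3.11, -5.28, -3.90, -4.54 and -2.89. The Itga6 and Tln2 calls were lost without pool B, where their log2 ratios by summed reads were -2.87 and -1.03. By the mean of cells they were -0.93 and 0.24, so that Tln2 went the other way. The Tln2 call was also lost in thinned cells and without Ptprc cells, at -2.14 and -2.84. Against GFP+ EC, 0 of 16 measured members were called higher and 1 lower, with 9.65% and 18.3% of all genes called. That member was Fermt3, at 6.87 against 52.4 CPM. The GFP- and GFP+ comparisons share the GFPlow cells. Of 20 ligands, 3 were higher than in GFP- EC and 6 lower, with Postn, Col4a2, Col4a1 and Vcam1 at 4.52, -4.09, -3.17 and 2.69. Partners gave 0 higher and 6 lower of 24, with Lims2 at 0 reads against 138.3 CPM, Zyx at -2.79, Bcar1 at -2.26 and Actn4 at -2.09. Against GFP+ EC, Tnc was higher at 2.79 and Madcam1 and Col4a2 lower at -1.15 and -1.005, which made 1 higher and 2 lower of 18 ligands. The partners there were 2 higher (Cd151 at 1.42, Lims1 at 1.28) and 2 lower (Zyx at -2.30, Src at -1.06) of 23.

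Because LN GFP- EC mix lymphatic and blood endothelium, they were split by Prox1 into 21 cells at 10 CPM or more and 47 cells with 0 reads, leaving 6 cells in between. Flt1 was at 0.344 CPM in the cells with Prox1 and at 1146 in those without. Pool C held too few cells with Prox1 to be paired, so direction was checked in 2 pairings, pools A and B. Of 18 measured members, 5 were called higher with Prox1 and 1 lower, against 15.4% and 16% of all genes. Vcl was at 191.1 against 51.6 CPM (log2 ratio 1.87), a call kept under all 12 alternatives. Itga9 was at 110.7 against 18.2 CPM (2.54), Itgb3 at 63.4 against 17.8 (1.77), Parva at 249.1 against 89.6 (1.46) and Itga5 at 282.4 against 132.8 (1.08). Itga1 was the lower one, at 39.4 against 254.6 CPM (-2.66). The Itga5 call was lost under 6 of the 12 alternatives, Parva under 4, and Itga1, Itga9 and Itgb3 under 1 each, pool A or pool B being decisive for Parva and pool B for Itga5. Itga6 was at 92.9 CPM with Prox1 and 171.5 without (-0.88), and Parvb at 9.76 and 26.3 (-1.34), neither of them called. Fermt3, at 52.5 and 0.0795 CPM, was not called either, since neither side of pool A had a read. Ligands gave 7 higher and 3 lower of 19, with Madcam1, Tnc, Postn and Fn1 (fibronectin) at log2 ratios of 7.88, 5.94, 3.63 and 3.25. Partners gave 3 higher and 2 lower of 23, with Dab2, Zyx and Cd81 at 2.33, 1.90 and -1.44 and Lims2 at 0 reads against 185.4 CPM.

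Cells with Prox1 were then compared between gates, 69 GFP+ against 21 GFP-, with direction again checked in pools A and B only. These cells share Prox1 but not all markers. The lymphatic receptor Lyve1 was at 718.5 CPM in GFP+ cells, read in 84.1% of them, and at 245.4 CPM in GFP- cells, read in 23.8%. The blood endothelial gene Cd34 was at 0.945 and 142.3 CPM, read in 4.35% and 28.6%. The part of this in the ratios below was not tested. Of 18 measured members, 1 was higher in GFP+ cells and 4 lower, against 19.9% and 11.1% of all genes. Itga6 was at 8.3996 against 92.9 CPM (log2 ratio -3.32), close in size to the ratio over the whole gates. Parvb was at 0.434 against 9.76 CPM (-2.91). Itga5 was at 73.98 against 282.4 CPM (-1.92) and Itgb3 at 14.5 against 63.4 (-2.06). Itgav was the higher one, at 64.8 against 18.2 CPM (1.77). The calls of Parvb and Itgav were lost without pool A, at log2 ratios of -3.13 and 0.67 by summed reads and -0.63 and 0.87 by the mean of cells. Itga9, which was called between the whole gates, was not called here, at 189.2 against 110.7 CPM (0.77). Fermt3 was likewise close, at 56.8 against 52.5 CPM. Lower Itga6 and Parvb in LN GFP+ EC were therefore also seen among cells with Prox1, with the Parvb call resting on pool A. The Itga9 ratio was smaller among those cells. Ligands gave 3 higher and 6 lower of 19, with Tnc, Postn, Thbs1 and Madcam1 at -4.88, 4.51, -3.18 and 2.42. Partners gave 1 higher and 5 lower of 23, with Cd9, Lims1, Ptk2 and Zyx at -2.65, -2.61, -1.89 and -1.76.

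GFP- EC of the 2 tissues differed in 9 of 19 measured members, 6 higher in the tumour and 3 lower, against 20.2% and 6.98% of all genes. Tissue, plate and deposited table cannot be told apart in this comparison. Itgb1 was higher in the tumour at 1511 against 392 CPM (log2 ratio 1.94). Fermt2 was higher at 1.64, Itga3 at 2.28, Itga6 at 1.20 and Itgb3 at 1.54. Itga4 was at least 226.4-fold higher in the tumour, against a floor of 3 reads in the LN gate. Tln2, Itga2 and Itgb4 were lower, at -5.45, -3.31 and -2.68. The Tln2 call was lost without cells that had a Ptprc read, at -5.42. The tumour gate held 0 cells with Prox1 reads and the LN gate 36.5%, and the part of this in the ratios was not tested. Of 21 ligands, 6 were higher and 5 lower, led by Postn, Spp1, Tnc and Npnt at -5.50, 5.07, -4.74 and 3.96. Of 23 partners, 1 was higher (Flna at 1.25) and 1 lower (Tns3 at -2.25).

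A receptor needs both chains in 1 cell, so the share of cells with reads of both was counted after thinning to 100000 reads. Reads of both chains do not show that the receptor was formed. Tumour EC most often carried alpha6beta1 (72.5% of GFP+ and 78.05% of GFP- cells) and alpha5beta1 (64.1% and 80.5%), followed by alpha3beta1 (42.5% of GFP+ cells). Itgb1 was in 95.8% and 98.8% of these cells, so the shares of its pairs lay near those of the alpha chain alone. Those were 74.9% and 79.3% for Itga6 and 67.7% and 81.7% for Itga5. Macrophages carried alphaMbeta2 in 79.01% of cells, alphaLbeta2 in 55.6% and alphavbeta5 in 39.5%, and each of these pairs was in 0 thinned tumour GFP+ EC, which allows a share of up to 1.796%. They also carried pairs found in EC, with alpha6beta1 in 45.7% and alphavbeta1 in 40.7% of cells. The alphavbeta1 pair was in 22.2% of tumour GFP+ and 43.9% of tumour GFP- EC. LN GFP+ and GFPlow EC most often carried alpha9beta1, in 45.3% and 52.6% of cells, against 12.7% of LN GFP- EC. Alone, Itga9 was in 65.3%, 65.4% and 18.3% of these gates in that order, and Itgb1 in 63.2%, 76.9% and 64.8%. In the tumour alpha9beta1 was in 25.1% of GFP+ and 6.10% of GFP- EC. The alphavbeta3 pair was in 15.6% and 20.7% of tumour GFP+ and GFP- EC and in at most 2.82% of any LN gate. Without thinning, alpha9beta1 was in 48.98% and alpha6beta1 in 42.9% of LN GFP+ EC. A cell held a median of 3 alpha chains in both tumour EC gates, 4 in macrophages and 2 in each LN gate, and a median of 2, 3 and 1 beta chains in the same order. No beta chain read was found in 1.796% of tumour GFP+ EC, 1.22% of tumour GFP- EC, 28.4% of LN GFP+ EC, 22.5% of LN GFP- EC and 20.5% of LN GFPlow EC. A chain without reads in a thinned cell was not detectable at this depth, which does not show it to be absent.

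**Figure D5:**
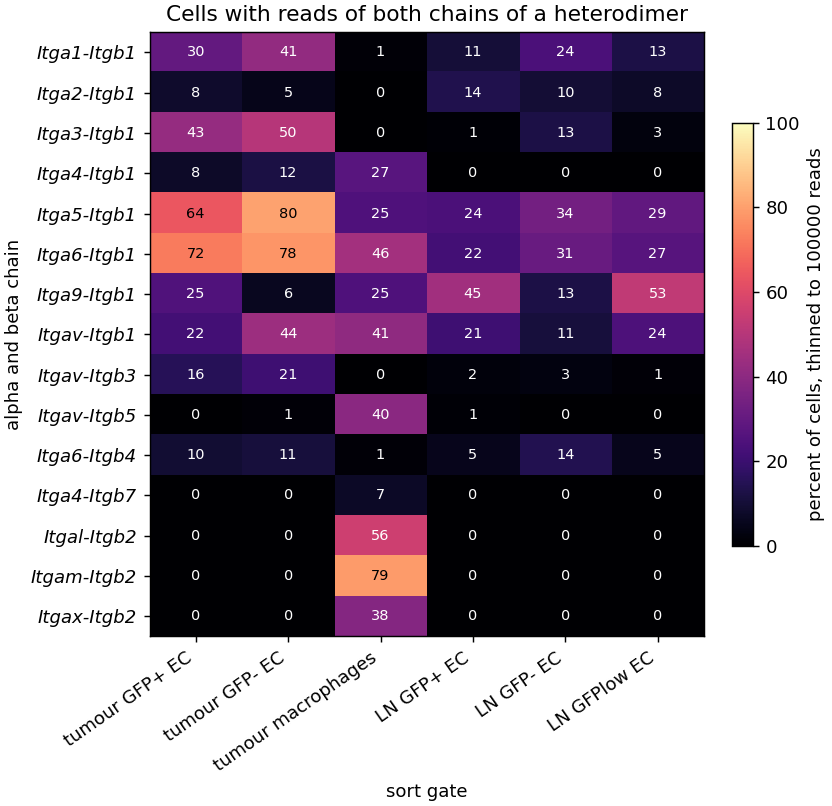
Percent of cells with reads of both chains of a heterodimer (rows, pairs reaching 5% in at least 1 gate) by sort gate (columns), each cell thinned to 100000 reads. The beta2 pairs shown are at 0 in every EC column, alphavbeta5 is at 39.5% in macrophages and in 1 cell each of tumour GFP- and LN GFP+ EC, and alpha9beta1 is the most frequent pair in LN GFP+ and GFPlow EC.

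The other 9 members were measured in none of the 6 gates. Itga7, Itgad, Itgb6 and Itgb8 had 0 reads in every one of them. Fermt1 was at 2.95 CPM in LN GFPlow EC, from 1 cell, and Itga11 at 1.91 and 1.43 CPM in LN GFP+ and GFPlow EC, from 1 cell each. Itga8 was at 3.49 CPM in macrophages, from 4 cells, and at 0.830 in LN GFPlow EC, from 1 cell. Itga10 reached at most 0.589 CPM in any gate and Itgae, the alphaE chain of epithelial lymphocytes, 3.63 CPM in macrophages, from 1 cell.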

How the data were processed

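Single cells were sorted into plates and sequenced by SMART-seq2, a full-length method without molecular identifiers, so reads of a gene in a cell are not independent molecules. The deposited tables, 1 for the tumour and 1 for lymph node and blood, hold whole-number counts of reads per gene and cell. The submitters' processing notes name STAR 2.4.1b, Subread 1.4.6-p2, FastQC 0.11.4 and the build mm10. The annotation version and strand setting are not given in the sources used here. Each table had 51826 rows; 92 repeated rows were summed with their namesakes, leaving 51734 symbols, and 0 columns lacked a sample.

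Cells were kept with at least 50000 reads, at least 1000 genes and at most 25% mitochondrial reads, and doublets were not called because wells were sorted singly. Kept cells held 58373 to 3123112 reads. Counts were summed per sort gate and converted here to CPM. Levels carry Poisson intervals (exact) and cell shares Clopper-Pearson intervals, at 95%. The upper limit given for a share of 0 is 3 cells of the group's total. Ratios are log2 of CPM + 1. A gene counted as measured where one of the groups reached 1 CPM with 5% or more of its cells holding a read. A call needed the summed level and the mean over cells to differ 2-fold, and each pairing of plates or pools with 5 or more cells per side to go the same way. A gate is 1 sample, so no p-value was computed. Ratios against 0 reads use a floor of 3 reads over the group. Shares were also computed in cells thinned to 100000 reads. Exon lengths and overlaps come from GENCODE vM21 on GRCm38, which may differ from the annotation used by the submitters, and promoters from RefSeq on GRCm38.p6. The computing used python 3.11.15, numpy 2.4.6, pandas 2.3.3 and scipy 1.17.1, and the calling steps were tested on simulated data.

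The members, the lists of 25 ligands and 25 partners, and the marker lists were chosen with earlier results of these data known. Every member is accounted for, members at 20 CPM or more in a gate are given by plate or pool (the LN pools of Itga1 and Itga2 as ranges, and genes near 0 in EC by gate), and up to 4 called genes of each list are named by the size of their ratio, apart from an item that is not reported here. Alternatives were a stricter cell filter (100000 reads, 2000 genes, 10% mitochondrial reads), a pseudocount of 5 CPM, a low-value filter of 5 CPM in 10% of cells or none, median-of-ratios scaling, thinning, another Prox1 rule and leaving out each plate or pool. Blood cells and empty wells entered no comparison.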

Additional observations from a re-analysis of the deposited data

Results flagged for a closer look

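The log2 ratio of Parvb between GFP+ and GFP- EC had opposite signs in the 2 tissues, and the member was called lower in the LN and not called in the tumour. Its log2 ratio was -3.86 in the LN, where GFP+ EC were lower in each of 3 pools, and 0.65 in the tumour, where both GFP+ plates lay above the GFP- plate. The difference between the tissues was not tested.

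The 7 blood GFP+ cells that passed the filter entered no comparison, and 8 members had reads in at least 25% of them, while 2 empty wells, with 59 and 82 reads in all, held 0 member reads. Fermt3, the kindlin of blood cells, was at 165.8 CPM with reads in 7 of 7 cells, Tln1 at 298.8 CPM in 5 cells and Itgb2 at 788 CPM in 3 cells. Itga4 was at 64.3 CPM in 3 cells. Reads in 2 cells gave Itgb7 539 CPM, Vcl 156.3 CPM, Itgb1 83.5 CPM and Ilk 73.8 CPM. In the same cells the pan-leukocyte gene Ptprc had reads in 71.4% and the B cell gene Cd79a also in 71.4%, and the endothelial genes Cdh5 and Kdr had 0 reads.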

How the results depend on the processing

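Of 74 member calls, 59 were kept under every alternative run and 15 were lost under at least 1. By summed reads, 0 of 733 recomputed ratios of called members changed sign. A call already needed a 2-fold difference and the same direction in each pairing. Changes of the low-value filter or the pseudocount cannot turn a sign. The count of 0 was thus largely set by the rule and says little on stability. By the mean of cells, the Tln2 log2 ratio of LN GFPlow against GFP- EC, called lower, was 0.24 without pool B. Of the recomputed counts of called members, 36 moved by over 1.5 times, and the cause was not tested. They follow with, in brackets, the share of all genes called the same way under that setting. Those shares moved as well. In LN GFPlow against GFP- EC, 14.8% of all genes were called higher in the main run and 42.9% without pool B. In tumour GFP+ against GFP- EC, 1 was higher without KM3 (6.63%) and 1 lower with no low-value filter (2.38%). In LN GFP+ against GFP- EC, 1 was higher without pool A (18.96%) and without cells against their gate's Ptprc (11.7%). There 5 were lower with the stricter cell filter (12.5%), without pool C (14.02%) and without each gene's top cell (7.24%). In LN GFPlow against GFP- EC, 2 were higher with the stricter filter (18.6%) or thinning (17.1%), 5 without pool B (42.9%) and 3 without pool C (27.6%). In LN GFPlow against GFP+ EC, 1 was higher with thinning (12.2%) and 2 without pool B (23.8%) or C (24.97%). Lower were 2 with the stricter filter (19.3%) or without pool C (30.8%), 3 without the top cell (29.95%) and 4 without pool B (26.9%). In tumour against LN GFP- EC, 5 were lower without pool C (14.9%). In the Prox1 split, 3 were higher with the stricter filter (14.01%), median-of-ratios scaling (13.3%), thinning (14.2%) or without the top cell (14.8%). Lower there were 2 with that scaling (17.7%) or without pool C (16.04%), 4 without pool A (22.3%) and 5 without pool B (29.96%). Also lower were 3 with thinning (15.8%), with Prox1 at 1 read or more (13.7%) or without the top cell (21.1%). Between Prox1 cells of the LN gates, 2 were higher with the stricter filter (19.6%), thinning (19.05%), without the top cell (33.8%) or without pool C (20.04%). Without pool B, 4 were higher (31.4%) and 7 lower (20.2%). Leaving out top cells or cells against their Ptprc gate was chosen after seeing the data. Median-of-ratios scaling shifted log2 ratios of genes far above the pseudocount by 0.13 in tumour GFP+ against GFP- EC, -0.20 in tumour GFP- EC against macrophages, -0.16 between tissues and -0.18 in the Prox1 split, and by -0.07 to -0.01 elsewhere. No paired analysis was possible because no result comes from a test and replicate numbers only name wells. The pools that LN gates share entered each call, as 1 pairing per pool with 5 or more cells per side. In the 2 comparisons by Prox1 this left 2 pairings, pools A and B. The cells of a gate limit shares near 0, with an upper limit of 1.78 to 4.05% for a gate without a read.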
